A study of Homo sapiens with 4 samples.

Results

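The insulin-like growth factor (IGF) binding protein axis was followed through the 7 binding protein genes IGFBP1 to IGFBP7 and the 3 receptor genes IGF1R, IGF2R and INSR. These 10 genes, of 19775 genes named on the array, were represented by 29 probe sets that carry only 1 gene symbol, of 41091 such probe sets. A probe set is a group of short oligonucleotides on an Affymetrix array that together report 1 transcript or, for some types, several. The set was chosen by the p53 log2 ratios of IGFBP3, which was higher with p53 shRNA in these arrays, and by membership of the family, so the p53 comparison of these genes is a description and was not tested.

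RNA came from SK-BR-3, a HER2-amplified human breast cancer line that is long established and carries a mutant p53. All 4 groups were puromycin-selected cells that carried an shRNA vector, with 1 array each. The groups were control shRNA with the arm titled sicon, p53 shRNA with sicon, control shRNA with siRNA against Pontin, and p53 shRNA with siRNA against Pontin. The labels call the control both a control shRNA and an empty vector, do not spell out sicon, and do not say whether the selected cells were clones or pools. Cells were harvested 24 h after the siRNA, and each labelling used 200 ng of RNA.

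Binding proteins are secreted carriers that hold IGF1 and IGF2 in extracellular fluid and limit or extend their access to the receptors. IGF1R and INSR are receptor tyrosine kinases that signal through insulin receptor substrates to PI3K and AKT, whereas IGF2R carries IGF2 to lysosomes for breakdown. IGFBP3 is the main carrier of IGFs in blood, and its gene has been described as a target of wild-type p53, of TGF-beta and of hypoxia.

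The sequence before the transcription start is shown for IGFBP3, the member with the largest change, for IGFBP5, a binding protein gene with several probe sets kept, and for INSR, a receptor gene. Sequences are from RefSeq, build GRCh38.p14, 5′ to 3′ on the strand of the gene, and end at the base before the start. Capitals mark GC boxes (GGGCGG on either strand) and TATA-type hexamers, searched on both strands, of which the first is TATAAA, another has the letters TATATA and the last has the letters TATTTA. The intervals are chr7:45921273-45921522 (minus strand), chr2:216695550-216695799 (minus strand) and chr19:7294415-7294664 (minus strand).
IGFBP3: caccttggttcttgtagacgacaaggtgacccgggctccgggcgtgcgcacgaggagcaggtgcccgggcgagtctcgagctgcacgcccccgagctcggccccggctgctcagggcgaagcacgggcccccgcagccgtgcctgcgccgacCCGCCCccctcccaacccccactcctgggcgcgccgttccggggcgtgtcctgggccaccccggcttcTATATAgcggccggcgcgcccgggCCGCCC
IGFBP5: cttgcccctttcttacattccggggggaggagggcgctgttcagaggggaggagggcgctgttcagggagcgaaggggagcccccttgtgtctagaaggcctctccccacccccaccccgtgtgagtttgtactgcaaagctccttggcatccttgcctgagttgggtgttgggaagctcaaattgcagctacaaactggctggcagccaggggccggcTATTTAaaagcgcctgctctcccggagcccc
INSR: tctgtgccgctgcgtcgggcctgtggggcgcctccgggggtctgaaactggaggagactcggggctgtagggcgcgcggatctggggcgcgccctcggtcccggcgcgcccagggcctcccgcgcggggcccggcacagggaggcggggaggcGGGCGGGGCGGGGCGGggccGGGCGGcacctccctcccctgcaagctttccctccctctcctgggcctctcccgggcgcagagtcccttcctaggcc

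IGFBP3 had TATATA 30 bases before its start and 2 GC boxes that begin 98 and 6 bases before it. IGFBP5 had TATTTA 31 bases before its start and 0 GC boxes. INSR had 4 GC boxes, of which the first 3 overlap by 1 base each in the run of capitals, and 0 TATA-type hexamers. Over all 35116 promoters of this length, 42.6% held a GC box and 20.3% a TATA-type hexamer. The table held 10 promoters for 8 of the 10 members, and 8 of these 10 held a GC box. A TATA-type hexamer was in 3 of them, those of IGFBP3, IGFBP4 and IGFBP5. The p53 half-site consensus matched 1 of the 10, a start of IGFBP2 that is 1 of 3 listed for that gene, against 5.57% of all promoters. A match of letters is a description of the window, not a binding site.

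With 1 array per group, differences were judged by their size, and for Pontin siRNA a fit over the pairs was also run. Each knockdown was measured in 2 pairs of arrays with no array in common, and a call required a change of at least 1.5-fold (0.58 in log2) in the same direction in both pairs. Probe sets were kept where their mean signal reached the median of all probe sets, 15.4, and are termed bright where it reached the 75th percentile, 110.9. Of the 29 member probe sets 22 were kept and 9 were bright. IGFBP1, IGFBP4 and IGFBP6 had 0 probe sets kept. Signals are comparable between arrays for 1 probe set and not between probe sets; a brighter probe set is one with a higher signal, which need not mean more transcript.

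The cells carried the marks of their label. ERBB2 and GRB7 of the HER2 amplicon, the keratin genes KRT7, KRT8, KRT18 and KRT19 and EPCAM were all kept, while CDH1, with signals of 1.8 to 13.0, was not, nor were ESR1 and PGR. Pontin siRNA took the signal of its target RUVBL1 from 477.7 to 127.4 in control shRNA cells and from 398.2 to 65.8 in p53 shRNA cells. The p53 transcript is not reported here. The array with both knockdowns had a median signal of 19.6, against 15.9 to 16.5 on the other arrays, and was higher than the control array on all 18 hybridization controls, 1.42-fold on average.

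IGFBP3 ranked 3 from the top of 12056 genes kept by mean p53 log2 ratio, which was 2.37. Its brighter probe set (210095_s_at) had a signal of 48.8 on the control array, 232.0 on the p53 shRNA array, 26.3 on the Pontin siRNA array and 147.2 with both. The 2 arrays with p53 shRNA were the highest, and the array with Pontin siRNA alone was the lowest. In RNA of whole cultures, fewer cells of a kind and less RNA per cell cannot be told apart. With p53 shRNA the signal was 4.75-fold higher in cells without and 5.60-fold higher in cells with Pontin siRNA, log2 ratios of 2.25 and 2.48. With Pontin siRNA it was 1.86-fold lower in control shRNA and 1.58-fold lower in p53 shRNA cells, log2 ratios of -0.89 and -0.66.

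The dimmer IGFBP3 probe set (212143_s_at) ordered the arrays in the same way. Its signals were 17.5 on the control array, 60.4 on the p53 shRNA array, 8.3 on the Pontin siRNA array and 37.2 with both. The p53 log2 ratios were 1.79 and 2.16 and the Pontin log2 ratios -1.08 and -0.70. Its Pontin call was lost with a pseudocount of 16, and its signal on the array with Pontin siRNA alone lay below the median of all probe sets. It was kept only through its signals on the arrays with p53 shRNA, where it is high. Its likeness to the brighter probe set is therefore a description and was not tested. Neither IGFBP3 probe set is bright. Both are of the _s_at type, which can match several transcripts, and no IGFBP3 probe set was left without that type.

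With both knockdowns IGFBP3 stayed above the control array, by 3.02-fold on the brighter and 2.13-fold on the dimmer probe set. Of the 22 member probe sets kept, 6 were at least 1.5-fold higher with both knockdowns than with control shRNA, where 8.57% of all probe sets kept were, and 1 was lower, where 5.94% were. The departure from additivity is the log2 ratio of the double knockdown array to the control, less the sum of the log2 ratios of the single knockdowns to that control. For IGFBP3 it was 0.24 and 0.38 on the 2 probe sets, under 1.5-fold. For the brighter one it was 0.012 with the pseudocount and -0.0039 after median centring.

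IGFBP7 encodes a secreted matrix-associated protein that binds IGFs with lower affinity than IGFBP1 to IGFBP6 and is known from blood vessels and stroma. Its brightest probe set (201163_s_at) had a signal of 83.5 on the control array, 186.2 on the p53 shRNA array, 66.6 on the Pontin siRNA array and 114.4 with both. As for IGFBP3, the 2 arrays with p53 shRNA were the highest and Pontin siRNA alone the lowest. It was 2.23-fold and 1.72-fold higher with p53 shRNA, a call that was lost after median centring. With Pontin siRNA the log2 ratios were -0.33 and -0.70, which is not a call.

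Another IGFBP7 probe set (201162_at) gave larger Pontin ratios. Its signals were 52.5 on the control array, 81.6 on the p53 shRNA array, 13.8 on the Pontin siRNA array and 38.8 with both, so that here the control array stood above the array with both knockdowns. The Pontin log2 ratios were -1.93 and -1.07, and the p53 log2 ratios 0.64 and 1.49. Those of -1.93 and 1.49 are formed from the array with Pontin siRNA alone. There its signal, 13.8, lay below the median of all probe sets, 15.4. The p53 call was lost with a pseudocount of 16. The size of the IGFBP7 difference with Pontin siRNA therefore depends on the probe set, while both have the same sign. The third IGFBP7 probe set (213910_at) had signals of 0.3 to 3.5 and was not kept.

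**Figure D1:**
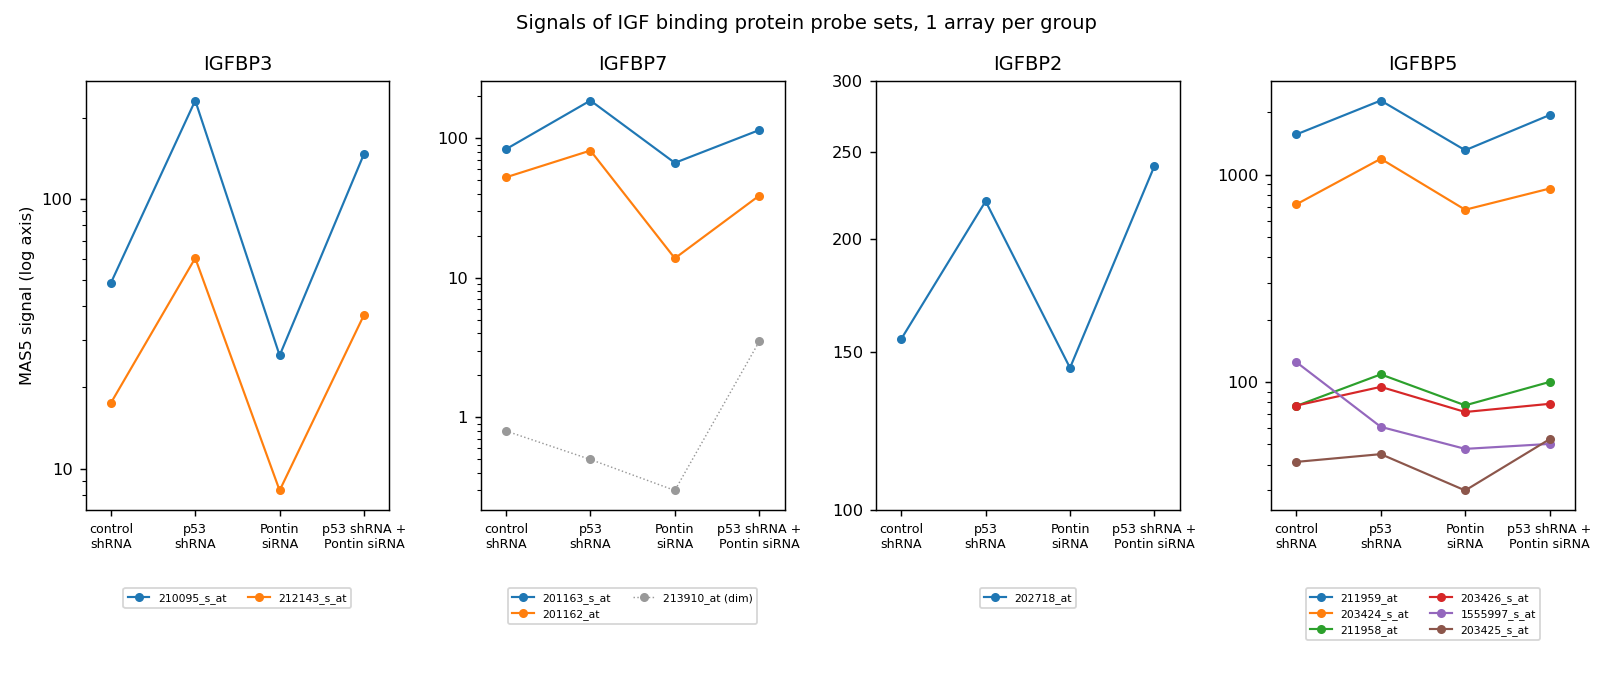
MAS5 signal (log axis) of each probe set of IGFBP3, IGFBP7, IGFBP2 and IGFBP5 on the 4 arrays, 1 per group. Lines join the arrays for 1 probe set and stand for no order, and dotted grey lines are probe sets that were not kept. Both IGFBP3 probe sets peak with p53 shRNA alone (232.0 and 60.4) and are lowest with Pontin siRNA alone (26.3 and 8.3).

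IGFBP2, which encodes a carrier found in many epithelial tumours, had 1 probe set (202718_at). Its signal was 154.9 on the control array, 220.5 on the p53 shRNA array, 143.9 on the Pontin siRNA array and 241.3 with both. The 2 arrays with p53 shRNA lay above the other 2, with log2 ratios of 0.51 and 0.75, of which the first is below 1.5-fold. The Pontin log2 ratios were -0.11 and 0.13, with opposite signs.

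IGFBP5, which encodes a carrier that binds extracellular matrix and is abundant in the involuting mammary gland, had 6 probe sets, all kept. The brightest (211959_at) had a signal of 1564.7 on the control array, 2279.5 on the p53 shRNA array, 1312.3 on the Pontin siRNA array and 1940.0 with both. The p53 log2 ratios of 0.54 and 0.56 lay just under the threshold in both pairs, and the Pontin log2 ratios were -0.25 and -0.23. The next (203424_s_at) had signals of 719.7, 1193.8, 677.7 and 857.5 in the same order of groups. Its p53 log2 ratios were 0.73 and 0.34.

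The dimmer IGFBP5 probe sets disagreed. With p53 shRNA, 5 of the 6 were above 0 in both pairs. The exception (1555997_s_at) had a signal of 124.7 on the control array and of 60.8, 47.6 and 50.3 on the p53 shRNA, Pontin siRNA and double knockdown arrays. On that probe set the control array alone stood high, and the departure from additivity was 1.12. Departures reached 1.5-fold in 5 of the 22 member probe sets kept, beside 16.2% of all probe sets kept. Of the 9 bright member probe sets 0 did, beside 3% of all bright probe sets.

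IGFBP1, a liver carrier regulated by insulin, IGFBP4, a carrier cut by PAPPA, and IGFBP6, a carrier that prefers IGF2, were dim on all arrays. Signals were 0.6 to 6.5 for IGFBP1, 1.6 to 3.3 for IGFBP4 and 13.6 to 17.2 for IGFBP6. IGFBP1 and IGFBP3 lie beside each other on chromosome 7 with 0 protein-coding genes between them, as do IGFBP2 and IGFBP5 on chromosome 2. Of the first pair of neighbours only IGFBP3 had a probe set kept, and of the second both genes had higher signals with p53 shRNA on their brightest probe sets.

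INSR, the insulin receptor gene, had 5 probe sets, all kept and all above 0 in both p53 pairs, though 0 were called. The brightest (213792_s_at) had a signal of 317.4 on the control array, 382.8 on the p53 shRNA array, 303.6 on the Pontin siRNA array and 505.4 with both. The p53 log2 ratios were 0.27 and 0.74 there and between 0.08 and 0.65 on the other 4 probe sets. With Pontin siRNA every INSR probe set had opposite signs in the 2 pairs, with log2 ratios from -0.17 to 0.40.

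IGF2R had 3 probe sets kept. The brightest (201393_s_at) had a signal of 1637.9 on the control array, 1808.9 on the p53 shRNA array, 1895.2 on the Pontin siRNA array and 2185.9 with both. The control array was the lowest and the array with both knockdowns the highest, as on the second probe set (201392_s_at), whose signals were 553.5, 581.9, 659.3 and 769.4. The Pontin log2 ratios of these 2 probe sets were 0.21 to 0.40 and the p53 log2 ratios 0.07 to 0.22. The third, a dim probe set, had a p53 log2 ratio of 0.25 in one pair and 0.93 in the other.

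IGF1R, the receptor gene for IGF1 and IGF2, was the receptor gene whose p53 ratios had no common sign. Its brightest probe set (225330_at) had a signal of 197.7 on the control array, 211.1 on the p53 shRNA array, 284.5 on the Pontin siRNA array and 254.1 with both. The 2 arrays with Pontin siRNA lay above the other 2, with log2 ratios of 0.53 and 0.27, while the p53 log2 ratios were 0.09 and -0.16. A dimmer probe set (203628_at) had Pontin log2 ratios of 0.43 and 0.41. Another (203627_at) had 0.22 and -0.39, so the IGF1R probe sets differ. The remaining 2, with signals of 2.0 to 20.8, were not kept.

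**Figure D2:**
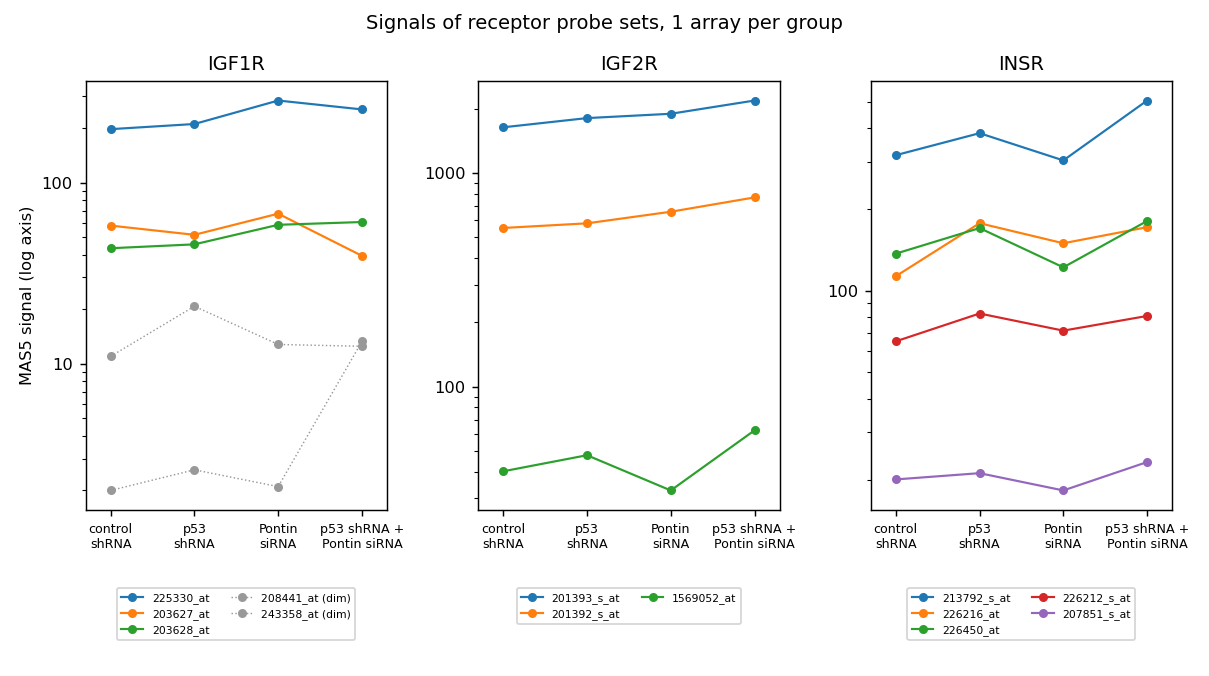
MAS5 signal (log axis) of each probe set of IGF1R, IGF2R and INSR on the 4 arrays, 1 per group. Lines join the arrays for 1 probe set, and dotted grey lines are probe sets that were not kept. The brightest IGF1R probe set is highest with Pontin siRNA alone (284.5), and the brightest INSR and IGF2R probe sets are highest with both knockdowns (505.4 and 2185.9).

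Over the whole axis, 4 of 22 member probe sets kept were called higher with p53 shRNA, 2 of IGFBP3 and 2 of IGFBP7, where 1.29% of all probe sets kept were. This contrast chose IGFBP3, so nothing is read from that count, nor from the signs and medians of the p53 ratios that follow. Lower calls numbered 0, against 0.869% of all. Above 0 in both p53 pairs were 19 of the 22, against 29.5% of all probe sets kept, and 8 of the 9 bright ones, against 29.4%. The exceptions were 1 probe set of IGFBP5 and 2 of IGF1R. The 22 belong to 7 genes, and probe sets of 1 gene are not independent. By brightest probe set, 6 of the 7 genes were above 0 in both pairs, against 30.6% of all genes kept. The median of the mean p53 log2 ratio was 0.44 over the 22 and -0.0012 over all probe sets kept. After median centring, which moved that median of all probe sets to -0.13, 13 of the 22 were above 0 in both pairs, against 11.9% of all.

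With Pontin siRNA, 3 member probe sets of the 22 were called lower, 2 of IGFBP3 and 1 of IGFBP7, where 1.25% of all probe sets kept were. The dimmer IGFBP3 probe set among them was kept only through its signals with p53 shRNA. On the array with Pontin siRNA alone that probe set, at 8.3, and that of IGFBP7, at 13.8, lay below the median of all probe sets. Higher calls numbered 0, against 1.47% of all. Among the 13 kept that were not bright, which include all 3 calls, the share of all such probe sets called lower was 1.46%. The median of the mean Pontin log2 ratio was -0.05 over the 22 and 0.02 over all probe sets kept. A limma fit that takes the pairs as replicates called 0 of the 22 and 0 of all 22776 probe sets after Benjamini-Hochberg adjustment. The smallest adjusted p among members was 0.398, and an unadjusted p under 0.05 was found for 5 of the 22 and for 2807 (12.3%) of all. Those 5 were the probe sets kept of IGFBP3 and IGFBP7, which were lower, and 203628_at of IGF1R, which was higher. The dimmer IGFBP3 probe set is among them, so nothing is read from that count.

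A higher p53 call was combined with a lower Pontin call in 17 of all probe sets kept, 0.0746%, which belong to 16 genes. The members among them were both IGFBP3 probe sets and 201162_at of IGFBP7. The p53 and Pontin ratios are formed from the same 4 arrays. In all 3 the array with Pontin siRNA alone was the lowest of the 4. The combination of the calls requires that order, so nothing is read from it.

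**Figure D3:**
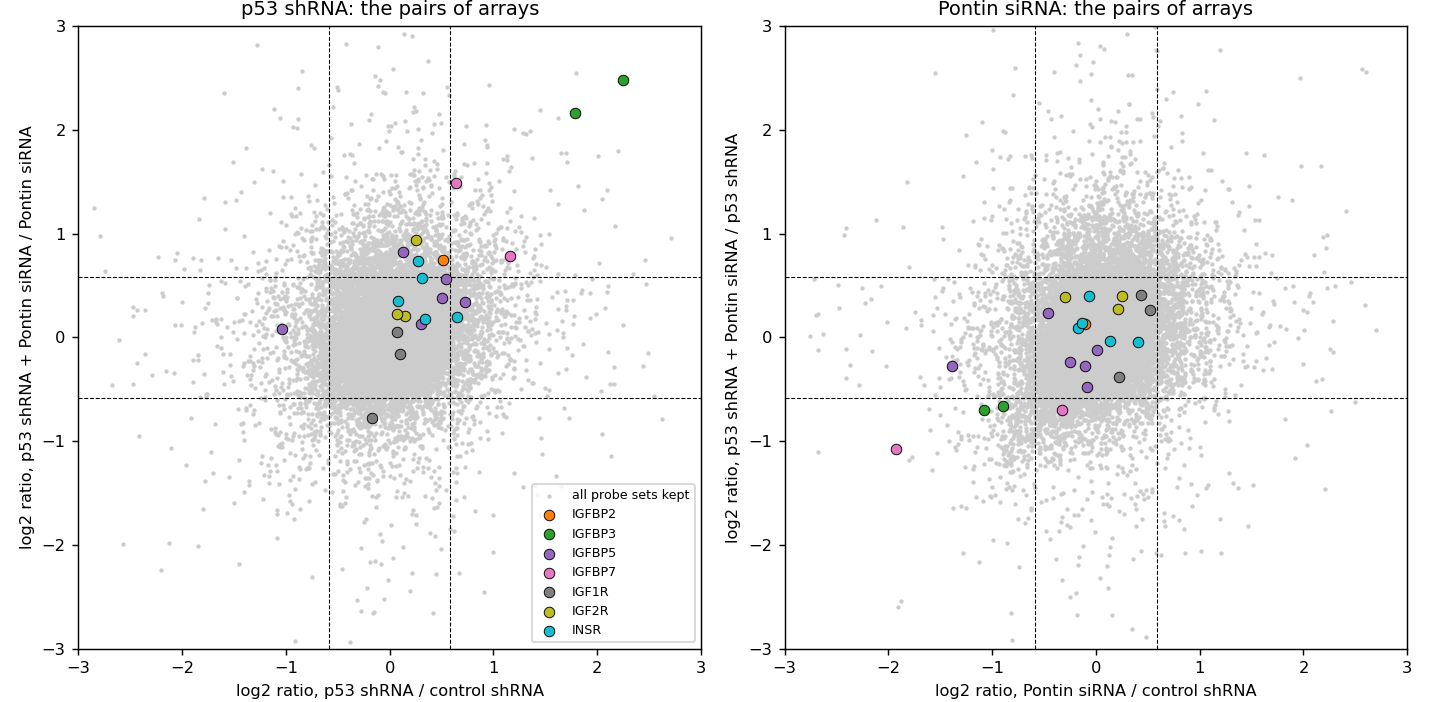
Log2 ratios of the 2 pairs of arrays for p53 shRNA (left) and Pontin siRNA (right). Grey points are all 22776 probe sets kept, of which those beyond 3 in size are outside the axes, coloured points are member probe sets, and dashed lines mark 1.5-fold. IGFBP3 lies at the upper right for p53 shRNA and, with 1 probe set of IGFBP7, at the lower left for Pontin siRNA.

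The profile over the 4 arrays was compared by Euclidean distance between log2 signals centred on their mean. Nearest to the brighter IGFBP3 probe set, among genes kept, were AGPS at a distance of 0.54, MGP at 0.64, HDAC8 at 0.79, PLXNC1 at 0.87, KLF3-AS1 at 0.94 and MIR1-1HG at 0.96. The median distance of all genes kept was 2.51. MGP and HDAC8 were bright. AGPS, PLXNC1 and KLF3-AS1 lay below the median of all probe sets without p53 shRNA. Their signals on the control and Pontin siRNA arrays were 12.7 and 7.0, 13.0 and 7.0, and 12.2 and 8.4. They were kept only through their signals with p53 shRNA. MIR1-1HG had 16.9 on the control array and 12.8, below that median, on the Pontin siRNA array. Its mean log2 signal over those arrays lay below that median, so it too was kept only through its signals with p53 shRNA. MGP encodes matrix Gla protein, a secreted inhibitor of calcification, with signals of 172.5 on the control array, 691.2 on the p53 shRNA array, 138.1 on the Pontin siRNA array and 462.5 with both. Within the IGF axis the nearest was IGFBP7, at 1.45 and 1.52 on its 2 probe sets kept, followed among probe sets kept by the brightest of IGFBP5 and that of IGFBP2 at 1.89 and 1.91. The measure rests on 4 arrays.

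**Figure D4:**
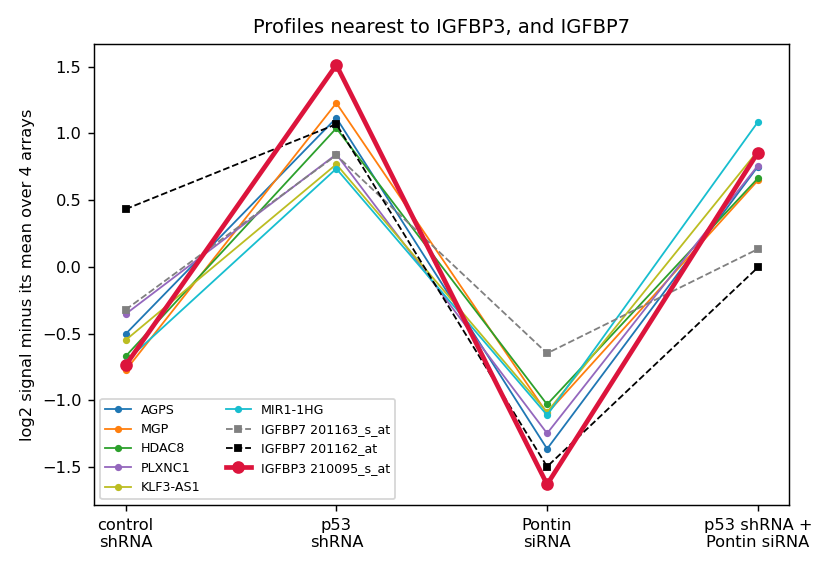
Log2 signal minus its mean over the 4 arrays for IGFBP3 (thick red), the 6 genes nearest to it and, dashed, the 2 IGFBP7 probe sets kept. The 6 genes were chosen for this likeness, so it is a description. On the array with Pontin siRNA alone the IGFBP3 line and all others are at their lowest.

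The remaining genes of the pathway were taken from a list of 63, of which 59 were named on the array and 40 were kept, each by its brightest probe set. With p53 shRNA 2 of the 40 were called higher, where 1.38% of all genes kept were, and 0 lower, where 0.863% were. With Pontin siRNA 1 was called lower, where 1.24% were, and 0 higher, where 1.17% were. The median of the mean ratio over the 40 was 0.04 for p53 shRNA and 0.03 for Pontin siRNA, beside -0.0024 and 0.01 over all genes kept. The 2 genes called were both of the IGFBP-domain superfamily, whose proteins share the N-terminal fold of the binding proteins.

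CCN2, the connective tissue growth factor gene of that superfamily, had a signal of 146.5 on the control array, 346.4 on the p53 shRNA array, 78.7 on the Pontin siRNA array and 164.9 with both. Like IGFBP3, it had a higher call for p53 shRNA and a lower call for Pontin siRNA. CCN4, a WNT-induced matricellular gene, had signals of 30.1, 47.9, 28.0 and 55.3 in that order of groups. Its p53 log2 ratios were 0.67 and 0.98 on this probe set. Of its other 2 probe sets kept, 235821_at, with signals of 19.0 to 40.8, had 1.10 and 0.20, and 206796_at, with signals of 15.5 to 21.7, had 0.49 and -0.09. Neither was called. CCN1, with the highest signals of that list, was at 0.20 and -0.08 with p53 shRNA.

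IGF1, INS and IGFALS, genes of ligands and of the carrier of the ternary complex, had 0 members kept, with signals of 0.5 to 24.8 on their brightest probe sets. Among genes of proteases that cut binding proteins and their inhibitors, 3 of 7 were kept. Of these 3, 0 were called, near the 0.863% to 1.38% of all genes kept that were called per knockdown and direction. STC1, which encodes an inhibitor of the protease PAPPA, was the brightest, with signals of 46.5, 69.0, 42.4 and 62.6. Its p53 log2 ratios of 0.57 and 0.56 lay just under the threshold. PAPPA2, a protease gene, had p53 log2 ratios of 0.58 and 0.50 and Pontin log2 ratios of 0.54 and 0.46.

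Signalling genes below the receptors held 0 calls for either knockdown. Of all genes kept, 1.38% were called higher and 0.863% lower with p53 shRNA. With Pontin siRNA 1.17% were called higher and 1.24% lower, so 0 calls is near the background and nothing is read from it. Of 14 adaptor and feedback genes 13 were kept, with the adaptor gene SHC1 the brightest, at p53 log2 ratios of -0.09 and -0.10 and Pontin log2 ratios of 0.07 and 0.06. IRS1, which encodes the substrate of IGF1R and INSR, had signals of 137.8, 158.6, 160.7 and 151.7. All 17 PI3K, AKT and mTOR genes named on the array were kept, with the GTPase gene RHEB the brightest. Its p53 log2 ratios were 0.07 and -0.04 and its Pontin log2 ratios -0.08 and -0.19. AKT1 was at -0.40 and -0.78 with p53 shRNA. TMEM219, which encodes a cell surface receptor for IGFBP3, had signals of 241.9 to 266.4 on the 4 arrays, and of the 3 genes for IGF2 mRNA-binding proteins 0 were kept, with signals of 10.9 to 20.4 for IGF2BP3, the brightest.

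**Figure D5:**
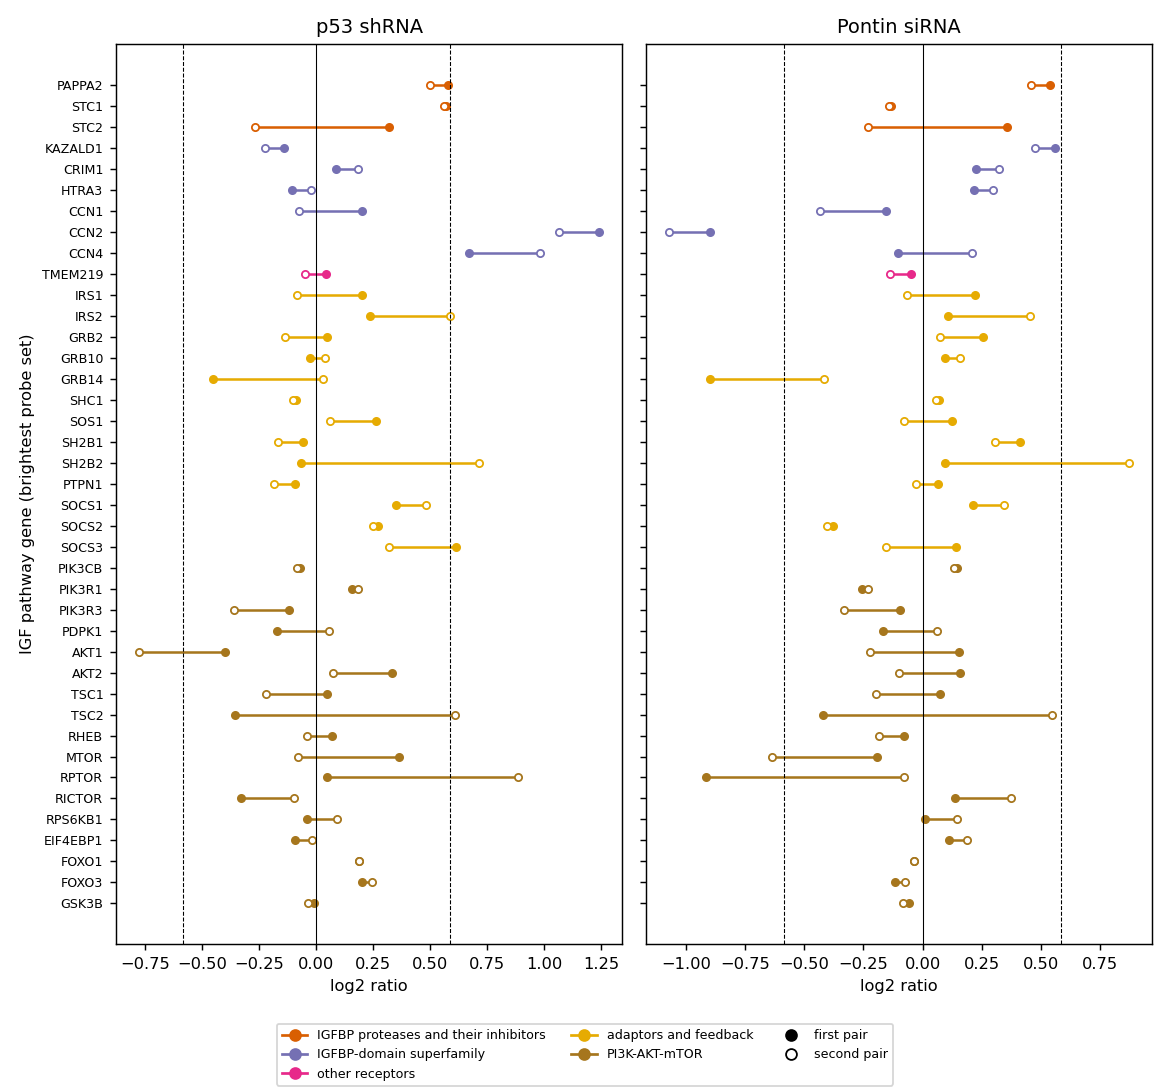
Log2 ratios of the 40 IGF pathway genes kept, by role, for p53 shRNA (left) and Pontin siRNA (right). Filled and open points are the first and the second pair, a line joins them, and dashed lines mark 1.5-fold. CCN2 and CCN4 lie beyond the line in both pairs for p53 shRNA, and CCN2 alone does so for Pontin siRNA.

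Since IGFBP3, IGFBP5 and IGFBP7 are also expressed by stromal and endothelial cells, markers of those cells were read on the same arrays. Of 7 fibroblast genes 1, COL1A1, was kept, and their summed signal was 220.4 on the control array, 200.2 on the p53 shRNA array, 217.7 on the Pontin siRNA array and 236.9 with both. The sum was lower in one and higher in the other p53 pair, and most of it was COL1A1, at 162.0 on the control array. By gene, COL1A2 and COL3A1 were above 0 in both p53 pairs and COL1A1, DCN and LUM below 0. PDGFRB and THY1 had opposite signs. Of 3 endothelial genes 2, CDH5 and PECAM1, were kept, and the sum was 103.9, 132.8, 98.9 and 149.6 in that order. That sum was higher on both arrays with p53 shRNA, and its part in the results was not tested. Of 3 immune genes 0 were kept, with sums of 11.3 to 32.9. No marker in these 3 lists was listed at 0.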

How the data were processed

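RNA from 4 cultures was hybridized to 1 Affymetrix array each. The deposited values are signal intensities on a linear scale, made by the authors with MAS5 per the submitters' processing notes, which give no version. Trimmed by 2% at either end, every array averaged 150.0, so the deposited intensities were already scaled. Detection calls were not used here, and the number of arrays limits the precision. With 1 array per group there is no spread between replicates.

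Gene names came from the annotation of the platform and were brought up to date by Entrez identifier. Of 54675 probe sets, 41097 carried 1 symbol (41043 matched the gene table), 1801 several and 11777 none. Affymetrix controls (62) were left out. Intensities were taken to log2 without a pseudocount. Signals of 0 (14 in the table) were set to 0.1. The gene value is that of its brightest probe set. Signals of different probe sets were ranked only to choose a gene's probe set and the genes named.

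Tools were Python 3.11.15 with numpy 2.4.6 and pandas 2.3.3, and R 4.3.3 with limma 3.58.1 for cyclic loess and the additive fit, which has 1 residual degree of freedom per probe set. Members, lists and rules were chosen with earlier results of these data known. Named were all 10 members, RUVBL1, pathway genes kept that were called, the brightest gene of each role, and the 6 genes nearest to IGFBP3. KRT, ERBB2 and other markers came from a list of cell type markers. Named outside that rule, after their values were seen, were AKT1, IRS1, PAPPA2 and the probe sets of CCN4.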

Additional observations from a re-analysis of the deposited data

How the results depend on the processing

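Alternatives were quantile normalization, median centring, cyclic loess, a pseudocount of 16, no filter on signal, bright probe sets only, leaving out _s_at and _x_at probe sets, a 2-fold threshold, the mean over probe sets and, for Pontin siRNA, the limma fit. Each pair alone was added after seeing the data. Member probe sets called higher with p53 shRNA were 4 as deposited, 0 among bright probe sets, 1 without _s_at and _x_at probe sets and 2 at 2-fold. Of all bright probe sets 0.222% were called higher, so 0 of the 9 bright members is near that share. Taken alone, the pair with Pontin siRNA had 8 of 22 past 1.5-fold higher, where 6.87% of all probe sets kept were, and the other pair 6, where 5.33% were. Lower calls with p53 shRNA were 0 as deposited and 1 of 22 in either pair alone, where 4.38% and 4.53% of all were, so that 1 is near the background. Lower calls with Pontin siRNA were 3 as deposited, 0 among bright probe sets and in limma, 1 without _s_at and _x_at probe sets and 1 at 2-fold. The limma fit says nothing about stability at 1 residual degree of freedom. Of all bright probe sets 1.06% were called lower with Pontin siRNA, so 0 of the 9 bright members is near that share too. The mean p53 log2 ratio of IGFBP3 was 2.37 as deposited, 1.94 with the pseudocount and 2.17 with the mean over probe sets. Its mean Pontin log2 ratio was -0.77 as deposited and -0.95 after median centring. Its departure, 0.24 as deposited, was 0.012 with the pseudocount and turned to -0.0039 after median centring. Pathway genes called higher with p53 shRNA were 2 as deposited, 4 without a filter and 1 with the pseudocount, among bright probe sets, at 2-fold and with the mean over probe sets. Lower calls there were 0 as deposited and 2 without a filter. With Pontin siRNA, higher calls were 0 as deposited and 3 without a filter. Lower calls with it were 1 as deposited, 2 after quantile normalization, median centring, cyclic loess and without a filter, and 0 at 2-fold. Of all probe sets without a filter, 6.67% were called higher and 4.27% lower with p53 shRNA. With Pontin siRNA 7.3% were called higher and 4.09% lower, so the counts without a filter, among 59 genes, are near the background. Shares of all genes at the other settings are not given, so those counts are a description. Of 74 alternative values that moved a member's mean ratio, 72 had its sign. A further 32 equalled the value as deposited, since the setting left that probe set as it was. IGFBP2 (-0.16) and INSR (-0.0048) turned with Pontin siRNA after median centring. That setting moved the median of all probe sets kept to -0.15. These values are formed from the same 4 arrays and include the p53 ratios of IGFBP3, so the tally is a description. No replicate number was used as a block, since the labels give none. Signals near or below the median of all probe sets, as for 1 IGFBP3 and 1 IGFBP7 probe set with Pontin siRNA alone, limit the ratios formed from them.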
